A study of Mus musculus with 29 samples.

Results

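The receptor chains through which macrophages sense IL-4, IL-6 and IL-10 were followed in mouse bone marrow-derived macrophages given those same cytokines. The chains are Il4ra, Il2rg, Il13ra1, Il6ra, Il6st, Il10ra, Il10rb, Lifr and Osmr, and every probe set annotated to exactly 1 of these genes was taken. This gave 22 probe sets of 8 genes, out of 20380 probe sets that name 1 gene and 22690 on the array. Il4ra and Il6st have 3 probe sets each, Il13ra1 has 5, Il6ra 2, Il10ra 3, Il10rb 1, Lifr 3 and Osmr 2. The annotation used here gives no probe set to Il2rg, so that chain was not analysed here.

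The cells were grown from the bone marrow of 8-week-old C57BL/6 mice (wild-type), for 7 days with CSF-1 (10 ng/ml), the growth factor that drives macrophage differentiation. They were then kept for 24 h in suspension in Teflon bags with CSF-1 (10 ng/ml) alone (unstimulated, 8 arrays) or with 10 ng/ml of each added cytokine. The cytokine groups were IL-4 (5 arrays), IL-6 (5), IL-10 (3), IL-4+IL-6 (5) and IL-4+IL-10 (3). CSF-1 was thus present in every group, the unstimulated one included. Nothing in the labels says whether the arrays of a group came from separate mice or cultures, so p-values measure the spread between these arrays, which may be technical. All values are the deposited log2 array values, in which a step of 1 is a doubling of the signal, and levels are compared between groups for 1 probe set at a time, never between probe sets.

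IL-4 binds the chain IL-4Rα (Il4ra), which pairs with the common gamma chain (Il2rg) in the type I receptor or with IL-13Rα1 (Il13ra1) in the type II receptor, and signals through JAK kinases to STAT6. IL-6 binds IL-6Rα (Il6ra), and the complex engages gp130 (Il6st), which also signals for LIF together with Lifr and for oncostatin M together with Osmr. IL-10 binds IL-10R1 (Il10ra), which is paired with IL-10R2 (Il10rb), a chain also used by other members of the IL-10 family. The IL-6 and IL-10 receptors both activate STAT3, and Socs3, a STAT3 target, restrains signalling from gp130 but not from IL-10R1.

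Il4ra, Il13ra1 and Lifr were the chains whose RNA was higher with IL-6 and also with IL-10, and their promoters are shown for that reason. The sequences are the 250 bases before an annotated start, from RefSeq on GRCm38.p6, written 5′ to 3′ on the strand of the gene. The table used held windows for 7 of the 9 genes, 8 windows in all because it held 2 for Lifr, and none for Il10ra or Il10rb. Both Lifr windows lie inside the annotated gene (chr15:7090610-7197489). The Osmr window, which is not printed, also lies inside its gene (6874314-6874563 in chr15:6813568-6874968, minus strand). The bases before the outermost starts of Lifr and Osmr were thus not searched.
Il4ra, chr7:125552021-125552270, plus strand: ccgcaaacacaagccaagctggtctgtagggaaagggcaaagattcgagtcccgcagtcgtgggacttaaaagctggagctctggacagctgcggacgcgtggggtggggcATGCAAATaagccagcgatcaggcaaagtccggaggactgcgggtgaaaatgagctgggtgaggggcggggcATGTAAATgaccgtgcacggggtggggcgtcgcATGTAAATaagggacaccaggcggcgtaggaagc
Il13ra1, chrX:36111858-36112107, plus strand: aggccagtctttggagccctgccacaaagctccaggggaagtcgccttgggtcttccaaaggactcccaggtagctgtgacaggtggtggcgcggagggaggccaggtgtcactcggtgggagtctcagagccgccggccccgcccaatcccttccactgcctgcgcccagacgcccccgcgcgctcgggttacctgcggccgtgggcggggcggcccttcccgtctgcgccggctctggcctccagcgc
Lifr, chr15:7129322-7129571, plus strand: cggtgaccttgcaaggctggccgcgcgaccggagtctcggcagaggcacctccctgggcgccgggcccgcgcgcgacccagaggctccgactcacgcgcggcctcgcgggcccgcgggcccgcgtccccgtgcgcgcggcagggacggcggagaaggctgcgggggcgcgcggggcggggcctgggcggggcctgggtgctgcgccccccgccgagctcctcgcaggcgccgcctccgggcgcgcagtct
Lifr, chr15:7140292-7140541, plus strand: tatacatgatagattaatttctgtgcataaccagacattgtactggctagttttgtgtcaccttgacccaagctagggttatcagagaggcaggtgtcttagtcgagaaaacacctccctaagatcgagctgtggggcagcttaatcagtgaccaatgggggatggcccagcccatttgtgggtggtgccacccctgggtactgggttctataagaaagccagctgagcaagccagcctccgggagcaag
The spacings TTCNNNGAA and TTCNNNNGAA, the palindromes that STAT factors bind, were searched on both strands and occur in none of the 8 windows. Among all 32851 windows of this length, 7.02% held the first and 5.85% the second. The capitals in the Il4ra window mark ATGNAAAT, a spelling of the octamer known from POU-factor sites, which was noticed in the printed sequence and then searched on both strands. It starts 139, 67 and 34 bases before the Il4ra start and is in no other of the 8 windows, while 5.03% of all windows held it at least once and 0.0365% held it 3 or more times. The arrays do not measure factor binding, and a match of letters is only a description of the window.

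The deposited values were comparable in level, with array medians from 6.95 to 7.03. All groups carried macrophage RNA: of 10 macrophage markers, 9 or 10 had a group mean above the filter level of 6.99, while markers of T and NK cells and of mast cells, basophils and eosinophils had none and those of stroma at most 1. Of 8 neutrophil markers 5 lay above it in every group, and of 6 erythroid and megakaryocyte markers 3 did. Some list means moved with the stimulations as receptor chains did. The macrophage mean per array was 11.96 to 12.09 without added cytokine, 11.2 to 11.4 with IL-4 and 12.2 to 12.3 with IL-6 or IL-10. Its genes moved unequally. Group means spanned least for Cd68 (13.69 to 13.84), Csf1r (14.18 to 14.37) and Lyz2 (14.35 to 14.90). They spanned most for Cd14 (10.48 to 13.24), Fcgr1 (8.78 to 12.49) and Cd163 (4.58 to 8.88), with the rest of the list between. The dendritic cell mean was 5.77 to 6.39 with the combinations against 5.23 to 5.46 without cytokine, with 1 or 2 of 5 markers above the filter level against 0. Of these markers, Cd209a (group means 5.62 to 10.10) and Ccr7 (5.96 to 7.29) spanned most. Flt3 (5.92 to 6.08), Zbtb46 (4.42 to 4.70) and Xcr1 (4.17 to 4.41) hardly moved and stayed under the filter level. The erythroid and megakaryocyte mean was 7.19 to 7.42 with IL-6 or IL-10 alone against 6.68 to 7.06 without added cytokine. In that list the group means ran from 10.5 to 12.8 for Pf4, 7.65 to 8.98 for Ppbp and 7.50 to 7.82 for Itga2b. Hba-a1, a haemoglobin gene, had no group mean above 4.48, Alas2 none above 4.78 and Klf1 none above 5.52. Only the unstimulated group has replicates 6 to 8, and they were grouped with the 3 arrays each of IL-10 and IL-4+IL-10 (second set), and replicates 1 to 5 with all other arrays (first set). The sets are inferred from the replicate numbers and not stated in the labels. B cell lineage markers moved with the set: 3 or 4 of the 7 measured lay above the filter level in groups of the first set, with an array mean of 6.58 to 7.99, and 1 in groups of the second set, with an array mean of 5.73 to 6.27. The signal of Actb 3′ probes over 5′ probes, a sign of RNA quality, also moved, from a mean log2 difference of 0.248 with IL-6 to 0.363 with IL-4+IL-6 in the first set (0.318 unstimulated), and from 0.342 with IL-10 to 0.441 unstimulated in the second. The part of these values in the receptor results was not tested, and for the main differences from unstimulated the value within the second set is given too. Between unstimulated replicates 6 to 8 and 1 to 5, 21.5% of all probe sets tested differed at an adjusted p under 0.05. Of the 12 receptor probe sets tested, only Il6st probe set 1452843_at was called, at -0.24 on the log2 scale (SE 0.06, adjusted p = 0.00379 by limma). The Lifr differences were larger but not called, -0.33 in 1454984_at (SE 0.14, adjusted p = 0.0992) and -0.43 in 1425107_a_at (SE 0.17, adjusted p = 0.0696).

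A probe set entered the test when it exceeded 6.99, the median of all values, on 3 arrays or more, and it was called when the adjusted p was under 0.05. Of the 22 receptor probe sets 12 were tested, and 7 of the 8 genes have at least 1 among them. Osmr, which serves oncostatin M together with gp130, was not tested, since its values ran only from 4.08 to 5.01 (1418675_at) and from 3.42 to 4.19 (1418674_at). Il13ra1 probe set 1454783_at passed through 7 arrays, all of the IL-6 and IL-10 groups, and Lifr probe set 1425107_a_at passed through 8 arrays of those groups. Il4ra probe sets 1423996_a_at and 1447858_x_at passed through 16 and 14 arrays, all given IL-6 or IL-10 alone or with IL-4. These 4 thus had to differ between groups to be tested, and the counts below are descriptions rather than support. In bulk RNA, fewer cells that carry a chain and less RNA per cell cannot be told apart.

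With 1 probe set per gene, IL-4 alone went with lower levels of 5 of the 7 chains (Il4ra, Il13ra1, Il10ra, Il10rb and Lifr) and a higher level of 1 (Il6st), against 57.0% of all probe sets called in either direction. IL-6 alone raised 4 (Il4ra, Il13ra1, Lifr and, slightly, Il6st) and lowered 0, against 37.2% of all probe sets called. IL-10 alone raised 3 (Il4ra, Il13ra1 and Lifr) and lowered 0, against 37.4%. For both, the count lowered by limma was also 0 at an unadjusted p under 0.05. IL-4+IL-6 raised 3 (Il4ra, Il6st and Il10rb) and lowered 3 (Il13ra1, Il6ra and Il10ra), against 72.0%. IL-4+IL-10 raised 2 (Il4ra and Il6st) and lowered 4 (Il13ra1, Il6ra, Il10ra and Lifr), against 70.9%. Changes are so frequent on these arrays that the number of chains called is near the background, and what follows is the direction and size for each chain. The 5 comparisons share the unstimulated arrays.

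**Figure D1:**
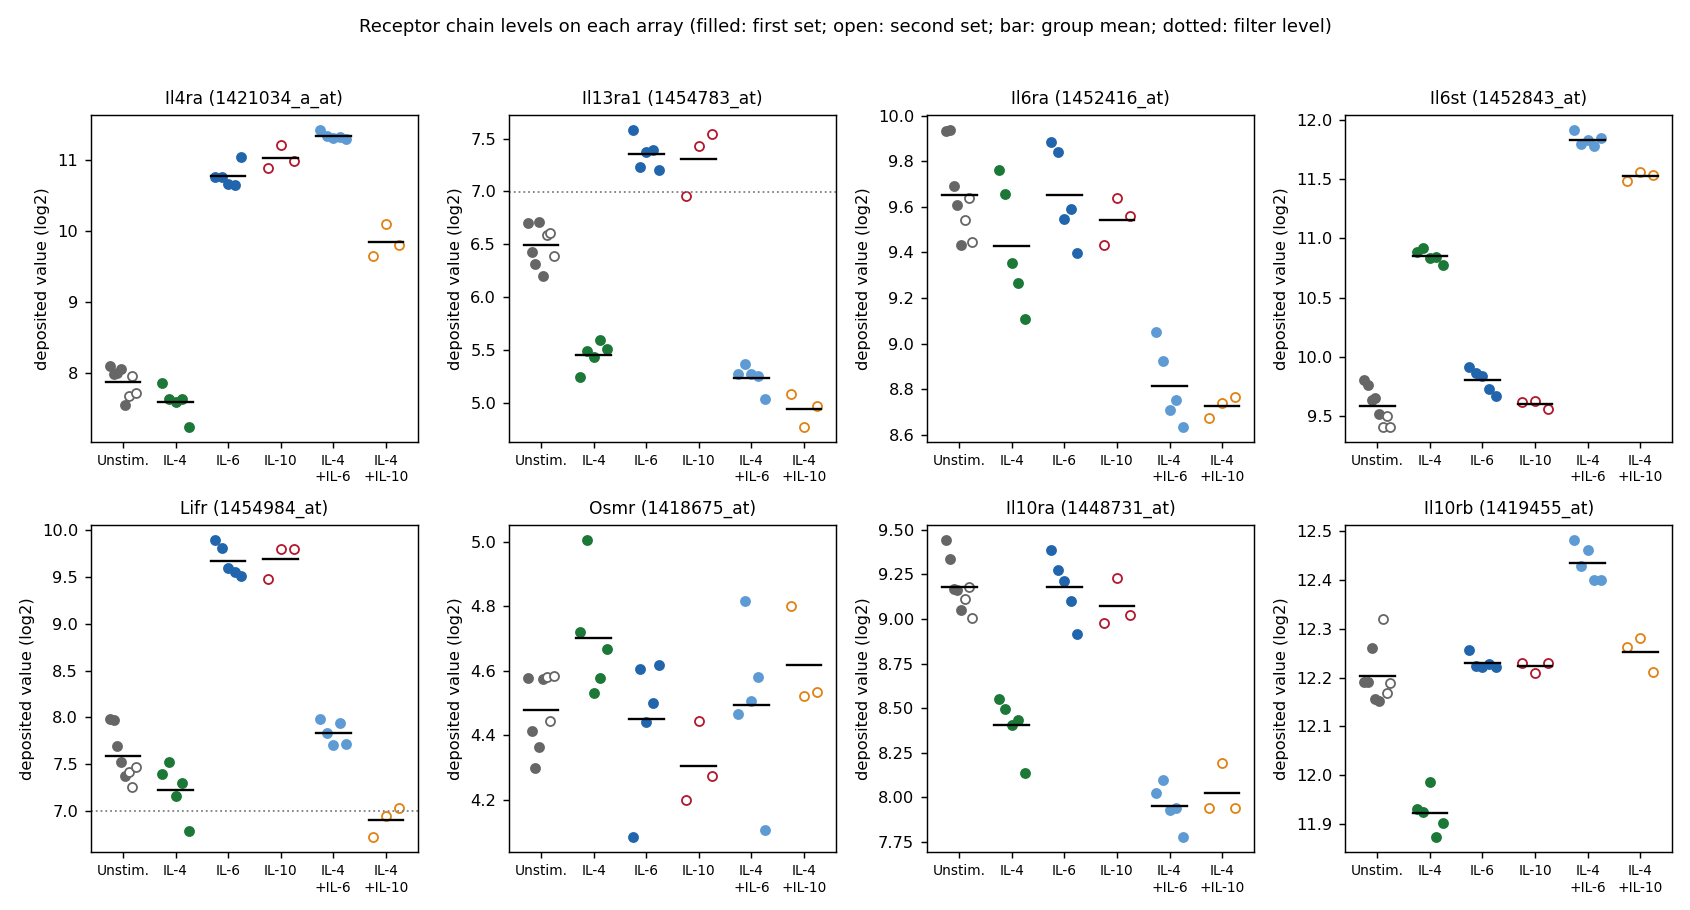
Deposited log2 value of each of the 29 arrays (vertical axis) by stimulation group (horizontal axis) for the probe set that represents each gene; filled points are the first set of arrays, open points the second set, bars the group means and the dotted line the filter level of 6.99. Il4ra lay near 8 without IL-6 or IL-10 and near 11 with IL-6 or IL-10 alone, Il6st rose in every group that received IL-4, and all Osmr values lay between 4.08 and 5.01.

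**Figure D2:**
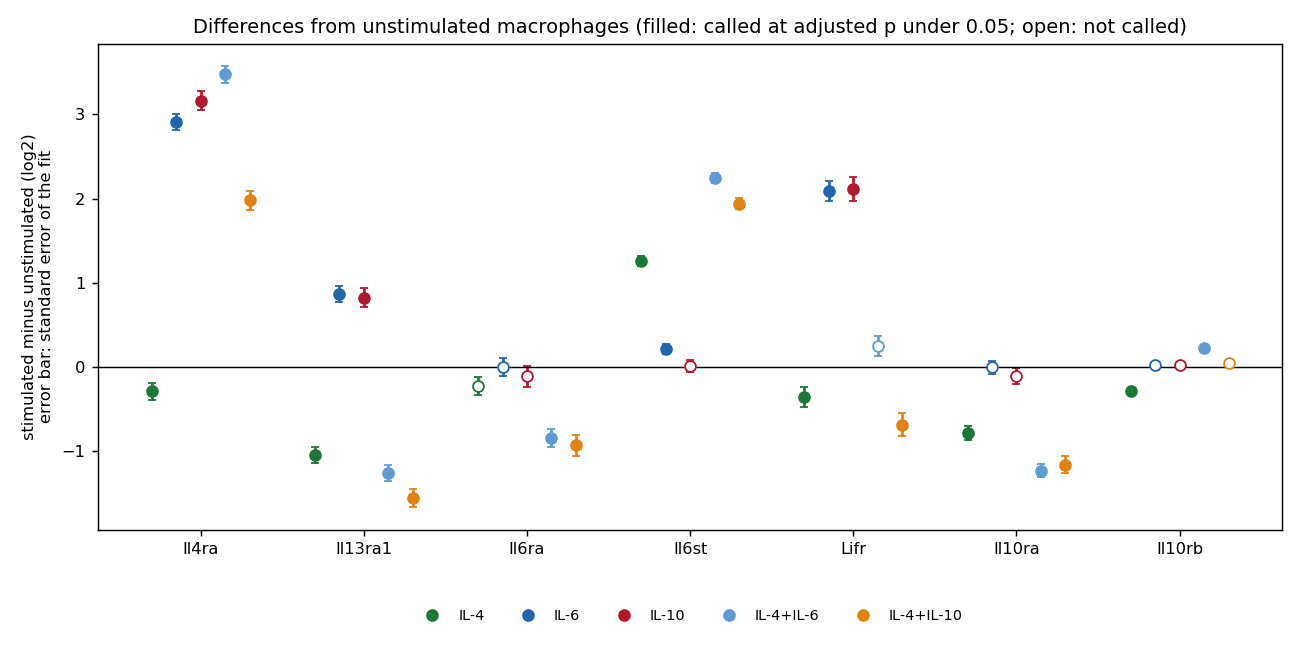
Difference from unstimulated arrays (log2, vertical axis) for 7 receptor chains (horizontal axis) and 5 stimulations (colours), with standard errors of the fit; filled points were called and open points not. The Il4ra differences span -0.29 to 3.47, and those of Il10rb stay between -0.28 and 0.23.

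Il4ra, the IL-4-binding chain, had the widest range of the 7. Its probe set 1421034_a_at lay between 7.54 and 8.10 (median 7.96) on the 8 unstimulated arrays. The IL-6 arrays read 10.76, 10.77, 10.67, 10.65 and 11.04, and the IL-10 arrays 10.89, 11.22 and 11.00. Every array with IL-6 or IL-10 alone thus lay far above every unstimulated one. IL-6 raised Il4ra 7.49-fold (log2 difference 2.91, SE 0.10, adjusted p = 6.78e-19) and IL-10 raised it 8.95-fold (3.16, SE 0.12, adjusted p = 8.21e-18). Within the second set the IL-10 difference was 3.26 (adjusted p = 5.44e-08).

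IL-4 itself moved its own receptor chain little. The IL-4 arrays read 7.86, 7.63, 7.58, 7.63 and 7.24, overlapping the unstimulated range, and the mean was lower by -0.29 (SE 0.10, adjusted p = 0.015). Without IL-4 replicate 5, the lowest array, the difference was -0.20 and no longer called (adjusted p = 0.0885). The other Il4ra probe sets gave -0.08 and -0.10 (adjusted p = 0.396 and 0.441), also not called. All 5 pairs of same-numbered arrays were lower with IL-4 in 1421034_a_at, by -0.24 to -0.42.

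The 2 combinations parted for Il4ra. The IL-4+IL-6 arrays read 11.43, 11.34, 11.31, 11.33 and 11.31, a narrow range above all IL-6 arrays, with a mean 11.1-fold over unstimulated (3.47, SE 0.10, adjusted p = 6.86e-22) and 1.48-fold over IL-6 (0.57, SE 0.11, adjusted p = 5.57e-05). The IL-4+IL-10 arrays read 9.65, 10.10 and 9.80, all below the IL-10 arrays and all above the unstimulated ones. Their mean was 2.27-fold below IL-10 (-1.19, SE 0.14, adjusted p = 5.56e-08) and 3.94-fold above unstimulated (1.98, SE 0.12, adjusted p = 2.65e-14), a difference of 2.08 within the second set (adjusted p = 3.1e-07). In the order of group means, IL-4+IL-6 was followed by IL-10, IL-6, IL-4+IL-10, unstimulated and IL-4, and only the neighbours IL-10 and IL-6 did not differ at the threshold (adjusted p = 0.17).

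In the other 2 Il4ra probe sets too, IL-4+IL-6 was highest, IL-6 and IL-10 did not differ at the threshold, and IL-4+IL-10 lay between them and unstimulated. In 1423996_a_at the differences from unstimulated were 2.54 with IL-6, 2.71 with IL-10, 2.96 with IL-4+IL-6 and 1.51 with IL-4+IL-10. In 1447858_x_at they were 0.74, 0.73, 1.12 and 0.30, and the last was not called within the second set (0.22, adjusted p = 0.194) or when any of 5 single arrays was left out, 3 of them the IL-4+IL-10 arrays.

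Il13ra1, the partner of IL-4Rα in the type II receptor, rose with IL-6 and with IL-10 and fell wherever IL-4 was present. Probe set 1454783_at lay between 6.20 and 6.71 (median 6.51) on unstimulated arrays. The IL-4 arrays read 5.24, 5.49, 5.43, 5.59 and 5.51, the IL-6 arrays 7.58, 7.23, 7.37, 7.39 and 7.20, and the IL-10 arrays 6.95, 7.43 and 7.55. The IL-4 values lay below all unstimulated values and the IL-6 and IL-10 values above them. The differences were -1.04 for IL-4 (SE 0.09, adjusted p = 3.53e-10), 0.86 for IL-6 (SE 0.09, adjusted p = 2.56e-08) and 0.82 for IL-10 (SE 0.11, adjusted p = 1.41e-06), the last 0.79 within the second set (adjusted p = 0.00309). No fold is given, since the unstimulated mean of 6.49 lies under the filter level.

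With both cytokines this Il13ra1 probe set was at its lowest. The IL-4+IL-6 arrays read 5.27, 5.36, 5.27, 5.25 and 5.03, and the IL-4+IL-10 arrays 5.08, 4.77 and 4.96, so that no array of either combination reached the unstimulated range. Relative to unstimulated the differences were -1.26 (SE 0.09, adjusted p = 2.38e-12) and -1.55 (SE 0.11, adjusted p = 1.93e-12), the latter -1.59 within the second set (adjusted p = 5.46e-06). Relative to IL-6 and IL-10 alone they were -2.12 (SE 0.11, adjusted p = 4.38e-16) and -2.37 (SE 0.14, adjusted p = 2.67e-14). IL-4+IL-6 was not called below IL-4 alone (-0.22, SE 0.11, adjusted p = 0.078), but with the replicate number as a block within the first set it was (-0.22, adjusted p = 0.0322), with 4 of 5 pairs lower. IL-4+IL-10 was below IL-4 alone (-0.52, SE 0.12, adjusted p = 0.000786).

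The 4 other Il13ra1 probe sets stayed under the filter level on all arrays and were not tested. Their values ran from 4.54 to 6.85 (1451775_s_at), 4.60 to 6.77 (1427165_at), 4.11 to 6.51 (1427164_at) and 3.68 to 4.36 (1425625_at). Without a test, the first 3 had group means 0.64, 0.76 and 0.88 above unstimulated with IL-6, and -0.84, -0.51 and -0.63 relative to it with IL-4, the same directions as the tested probe set. For IL-4+IL-6 against IL-4 they did not all follow it, with 0.31, -0.28 and 0.40.

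**Figure D3:**
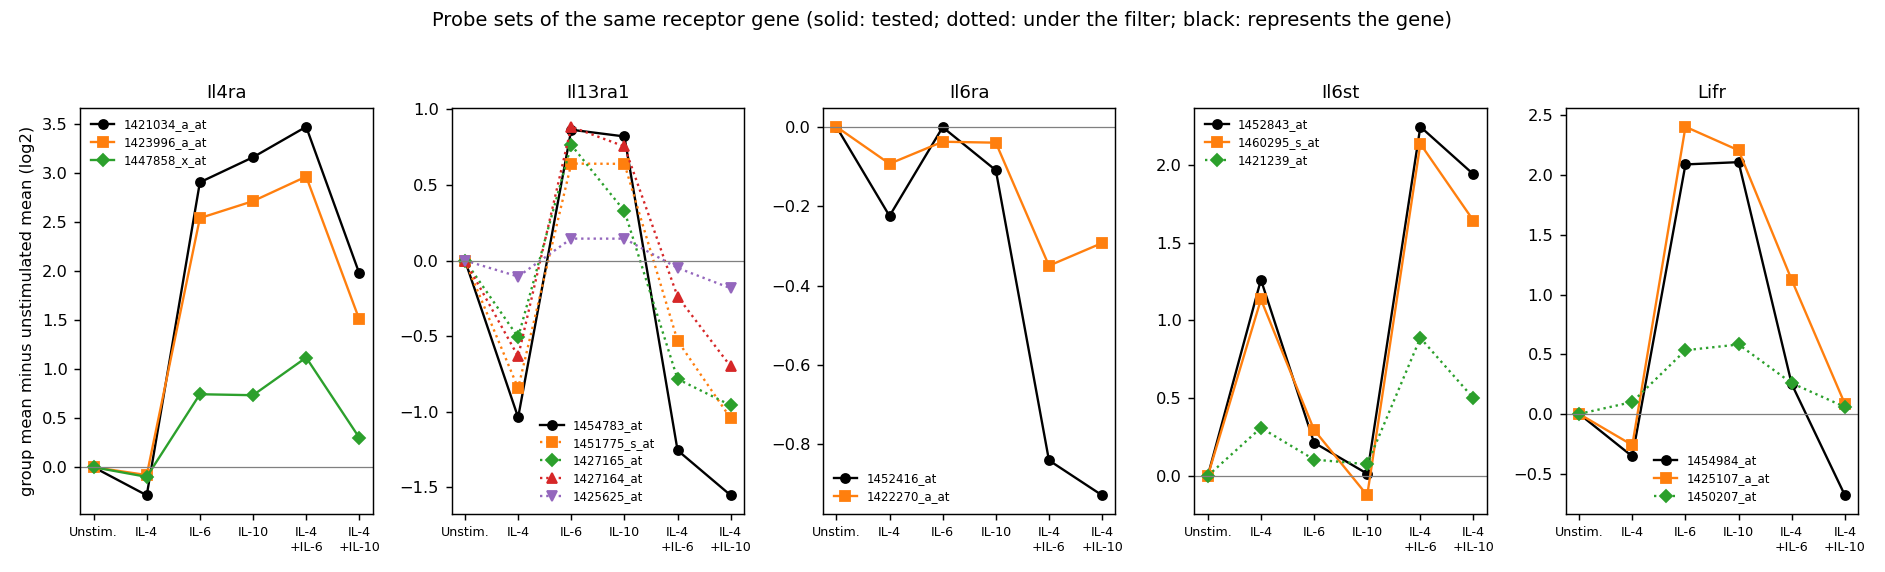
Group mean minus unstimulated mean (log2, vertical axis) by stimulation group (horizontal axis) for every probe set of the 5 genes named above the panels; solid lines were tested, dotted lines stayed under the filter, and black marks the probe set that represents the gene. The 3 Il4ra probe sets are highest with IL-4+IL-6 at different sizes (3.47, 2.96 and 1.12), and the tested Lifr probe sets part with IL-4+IL-6 (0.25 and 1.12).

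Il6ra, the IL-6-binding chain, was lowest with the combinations and was not called with IL-6 or IL-10 alone. Probe set 1452416_at lay between 9.43 and 9.94 (median 9.62) on unstimulated arrays. The IL-6 arrays read 9.88, 9.84, 9.55, 9.59 and 9.40 and the IL-10 arrays 9.43, 9.64 and 9.56, within or just under the unstimulated range. The differences were -0.00 with IL-6 (SE 0.10, adjusted p = 0.994) and -0.11 with IL-10 (SE 0.12, adjusted p = 0.512), the latter 0.00 within the second set (adjusted p = 0.993). A p above the threshold does not show that the levels were equal, and all 5 pairs were slightly lower with IL-6, by -0.02 to -0.14.

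The IL-4 arrays of Il6ra read 9.76, 9.66, 9.35, 9.27 and 9.11. They overlapped the unstimulated arrays, and the difference of -0.22 (SE 0.10) was not called (adjusted p = 0.0698). With replicate numbers as a block within the first set it was -0.29 and called (adjusted p = 3.48e-06), and all 5 pairs were lower, by -0.17 to -0.34. It was also called, at -0.25 to -0.31, when any 1 of 4 arrays was left out (IL-4 replicate 1 or 2, unstimulated replicate 5 or 8).

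**Figure D4:**
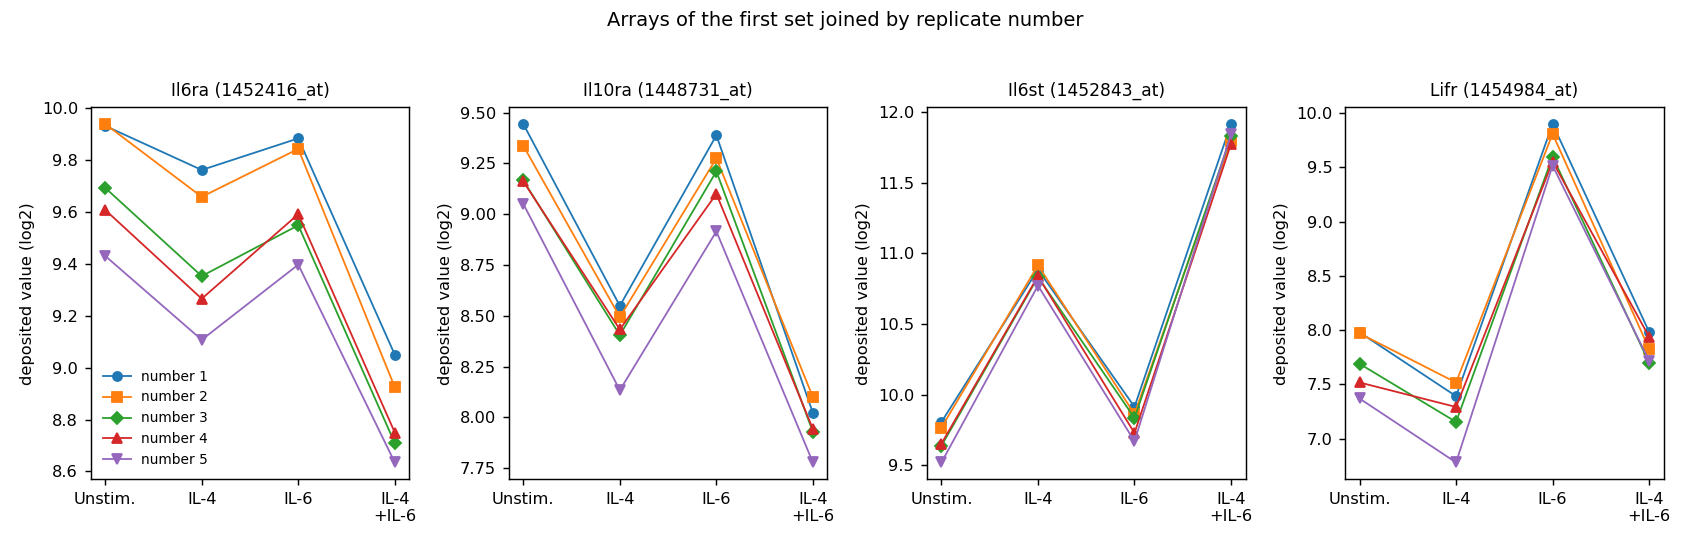
Deposited log2 values of the first-set arrays (vertical axis) in 4 groups (horizontal axis), joined by replicate number, for Il6ra, Il10ra, Il6st and Lifr. Il6ra fell from unstimulated to IL-4 in all 5 pairs, by -0.17 to -0.34, although the ranges of the groups overlap. In Lifr lines cross, with pair differences of IL-4+IL-6 from unstimulated between -0.14 and 0.42.

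IL-4+IL-6 brought Il6ra to 9.05, 8.92, 8.71, 8.75 and 8.63, and IL-4+IL-10 to 8.67, 8.74 and 8.76. All 8 of these arrays lay below all unstimulated, IL-6 and IL-10 arrays and below all IL-4 arrays. The means were 1.79-fold (-0.84, SE 0.10, adjusted p = 5.11e-08) and 1.90-fold (-0.93, SE 0.12, adjusted p = 2.3e-07) below unstimulated, the latter -0.82 within the second set (adjusted p = 5.72e-06). Against IL-4 alone they were -0.62 (SE 0.12, adjusted p = 5.21e-05) and -0.70 (SE 0.13, adjusted p = 8.34e-05). The order of means was unstimulated, IL-6, IL-10, IL-4, IL-4+IL-6 and IL-4+IL-10, and among neighbours only IL-4 and IL-4+IL-6 differed.

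The weaker Il6ra probe set 1422270_a_at gave smaller differences, -0.35 with IL-4+IL-6 (SE 0.09, adjusted p = 0.000732) and -0.29 with IL-4+IL-10 (SE 0.10, adjusted p = 0.013). The second of these was -0.18 and not called within the second set (adjusted p = 0.0849), and not called without IL-4+IL-10 replicate 1 (-0.27, adjusted p = 0.0544). Relative to IL-10 alone IL-4+IL-10 gave -0.25 (adjusted p = 0.0822), which was called with the replicate number as a block (-0.25, adjusted p = 0.00571). It had the same call as 1452416_at in 13 of 17 comparisons, with 0 opposite calls.

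Il6st, which encodes gp130, the signal-transducing chain of the IL-6 family, rose with IL-4 and rose further with the combinations. Probe set 1452843_at lay between 9.41 and 9.81 (median 9.58) on unstimulated arrays. The IL-4 arrays read 10.89, 10.92, 10.83, 10.84 and 10.77, the IL-4+IL-6 arrays 11.92, 11.80, 11.83, 11.78 and 11.84, and the IL-4+IL-10 arrays 11.49, 11.56 and 11.53. The 3 groups did not overlap with one another or with the unstimulated arrays. IL-4 raised it 2.40-fold (1.26, SE 0.06, adjusted p = 8.22e-17), IL-4+IL-6 4.74-fold (2.24, SE 0.06, adjusted p = 3.49e-23) and IL-4+IL-10 3.83-fold (1.94, SE 0.07, adjusted p = 1.64e-19). Within the second set the IL-4+IL-10 difference was 2.09 (adjusted p = 1.07e-09).

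Alone, IL-6 and IL-10 moved Il6st little. The IL-6 arrays read 9.91, 9.86, 9.83, 9.73 and 9.67 and the IL-10 arrays 9.62, 9.63 and 9.56, and both groups overlapped the unstimulated range. The IL-6 difference was 0.21 (SE 0.06, adjusted p = 0.00351), but 0.13 and not called against unstimulated replicates 1 to 5 only (adjusted p = 0.0732), although all 5 pairs were higher and it was called with the replicate number as a block (adjusted p = 0.01). The IL-10 difference was 0.01 (SE 0.07, adjusted p = 0.894) and 0.16 within the second set (adjusted p = 0.0814). The unstimulated arrays of this probe set were called different between the sets, while those of 1460295_s_at were not (-0.19, adjusted p = 0.146 by limma).

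Probe set 1460295_s_at of Il6st gave 1.13 with IL-4, 2.14 with IL-4+IL-6 and 1.64 with IL-4+IL-10, and had the same call as 1452843_at in 16 of 17 comparisons. The exception was IL-10 against IL-6, -0.42 in 1460295_s_at (adjusted p = 0.00743), which was not called with a term for the set (-0.23, adjusted p = 1). The third probe set, 1421239_at, ran from 5.29 to 6.61 and was not tested.

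Lifr, which pairs with gp130 in the receptor for LIF, followed IL-6 and IL-10 as Il4ra did, but not in the combinations. Probe set 1454984_at lay between 7.25 and 7.98 (median 7.50) on unstimulated arrays. The IL-6 arrays read 9.90, 9.81, 9.60, 9.55 and 9.51 and the IL-10 arrays 9.48, 9.80 and 9.80, all above every unstimulated array. IL-6 raised it 4.26-fold (2.09, SE 0.12, adjusted p = 4.55e-14) and IL-10 4.31-fold (2.11, SE 0.14, adjusted p = 2.11e-12), the latter 2.31 within the second set (adjusted p = 2.54e-07).

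When IL-4 was added to either cytokine, the Lifr rise was small or gone. The IL-4+IL-6 arrays read 7.98, 7.83, 7.70, 7.94 and 7.72, overlapping the upper part of the unstimulated range, and the IL-4+IL-10 arrays 6.72, 6.95 and 7.04, below it. Against IL-6 alone the difference was -1.84 (SE 0.13, adjusted p = 1.33e-12), 3.58-fold lower, and against IL-10 alone -2.79 (SE 0.17, adjusted p = 1.05e-13). Against unstimulated arrays the combinations gave 0.25 (SE 0.12, adjusted p = 0.0619) and -0.68 (SE 0.14, adjusted p = 0.000114), the latter -0.48 within the second set (adjusted p = 0.00334). Against unstimulated replicates 1 to 5 only, the first of these was smaller, 0.13, and not called, with 4 of 5 pairs higher. Over both sets it was called without unstimulated replicate 1 (0.31, adjusted p = 0.0192) or 2 (0.30, adjusted p = 0.0203). It was also called after quantile normalization (0.27, adjusted p = 0.0424) or median centring (0.28, adjusted p = 0.0359), and with the mean of the gene's probe sets (0.54, adjusted p = 2.73e-05).

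IL-4 alone gave Lifr values of 7.39, 7.52, 7.16, 7.29 and 6.78, overlapping the unstimulated range. The mean was lower by -0.36 (SE 0.12, adjusted p = 0.0124), which fell to -0.24 and was not called without IL-4 replicate 5 (adjusted p = 0.078). All 5 pairs were lower, by -0.23 to -0.59. The order of means was IL-10, IL-6, IL-4+IL-6, unstimulated, IL-4 and IL-4+IL-10, and only 2 neighbouring steps were called, that from IL-6 to IL-4+IL-6 and that from unstimulated to IL-4.

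The dimmer Lifr probe set 1425107_a_at rose with IL-6 (2.41, SE 0.15, adjusted p = 1.65e-13) and IL-10 (2.21, SE 0.17, adjusted p = 4.58e-11, and 2.48 within the second set) but kept part of the rise with IL-4+IL-6 (1.12, SE 0.15, adjusted p = 9.47e-08). With IL-4+IL-10 it stood at 0.08 from unstimulated (adjusted p = 0.68), against -0.68 for 1454984_at. Within the second set it stood at 0.35 and was called (adjusted p = 0.0137), while 1454984_at was called lower there, the opposite direction. The mean of the gene's probe sets gave -0.18 over all arrays and was not called (adjusted p = 0.183). With IL-4 alone it gave -0.26 (adjusted p = 0.128), called with the replicate number as a block within the first set (-0.42, adjusted p = 0.000643). Probe set 1450207_at ran from 5.09 to 6.18 and was not tested.

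Il10ra, the IL-10-binding chain, fell with IL-4 and fell further with both combinations. Probe set 1448731_at lay between 9.01 and 9.44 (median 9.16) on unstimulated arrays. The IL-4 arrays read 8.55, 8.49, 8.40, 8.43 and 8.13, the IL-4+IL-6 arrays 8.02, 8.10, 7.93, 7.94 and 7.78, and the IL-4+IL-10 arrays 7.94, 8.19 and 7.94. All arrays that received IL-4 lay below all that did not. IL-4 lowered it 1.72-fold (-0.78, SE 0.08, adjusted p = 4.71e-09), IL-4+IL-6 2.34-fold (-1.23, SE 0.08, adjusted p = 1.41e-13) and IL-4+IL-10 2.23-fold (-1.16, SE 0.10, adjusted p = 3.56e-11). Within the second set the last difference was -1.07 (adjusted p = 4.08e-06).

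Neither IL-6 nor IL-10 alone moved Il10ra past the threshold. The IL-6 arrays read 9.39, 9.28, 9.21, 9.10 and 8.92 and the IL-10 arrays 8.98, 9.23 and 9.02, overlapping the unstimulated range, with differences of -0.00 (SE 0.08, adjusted p = 0.977) and -0.11 (SE 0.10, adjusted p = 0.406). Within the second set the IL-10 difference was -0.02 (adjusted p = 0.901). IL-4+IL-10 was lower than IL-4 (-0.38, SE 0.10, adjusted p = 0.00322), a comparison across the sets that gave -0.24 with a term for the set and was not called (adjusted p = 0.209). The other 2 probe sets of Il10ra ran from 4.82 to 6.00 (1437808_x_at) and from 3.75 to 4.23 (1456173_at) and were not tested.

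Il10rb, the shared second chain of the IL-10 receptor, moved by less than 0.3 from unstimulated in every group but with a small spread between arrays. Its only probe set, 1419455_at, lay between 12.15 and 12.32 (median 12.19) on unstimulated arrays. The IL-4 arrays read 11.93, 11.92, 11.99, 11.87 and 11.90, all below the unstimulated range, and the IL-4+IL-6 arrays 12.48, 12.43, 12.46, 12.40 and 12.40, all above it. IL-4 lowered it 1.21-fold (-0.28, SE 0.03, adjusted p = 4.58e-09) and IL-4+IL-6 raised it 1.17-fold (0.23, SE 0.03, adjusted p = 6.59e-08). The IL-6 arrays spanned 12.22 to 12.26, the IL-10 arrays 12.21 to 12.23 and the IL-4+IL-10 arrays 12.21 to 12.28, with differences of 0.03, 0.02 and 0.05 that were not called (adjusted p = 0.504, 0.691 and 0.212). Within the second set the IL-10 and IL-4+IL-10 differences were -0.00 and 0.03. The IL-4+IL-10 difference was called when each array was centred on its median (0.09, adjusted p = 0.0273).

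Whether the single-cytokine effects add up in the combinations was tested by the interaction, which is 0 on the log2 scale when they do. With IL-6, all 7 chains were called, 3 above and 4 below the sum, against 38.1% of all probe sets. With IL-10, 6 of 7 were called, 2 above and 4 below, against 23.9%. Il6st was above the sum in both (0.77, SE 0.08, adjusted p = 3e-08, and 0.66, SE 0.10, adjusted p = 1.41e-05), as was Il10rb (0.48, SE 0.04, adjusted p = 9.71e-10, and 0.31, SE 0.05, adjusted p = 5.85e-05). With a term for the set each of the 7 chains had the same call for the IL-10 interaction. A shift between the sets largely cancels in this interaction, since IL-4+IL-10 and IL-10 share a set, so the term could change little. It also cannot show whether IL-4 acts differently in the 2 sets, as IL-4 alone is only in the first. The 2 interactions share the unstimulated and IL-4 arrays.

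Lifr and Il13ra1 lay below the sum in both combinations. The Lifr interactions were -1.48 with IL-6 (SE 0.18, adjusted p = 1.52e-07) and -2.44 with IL-10 (SE 0.21, adjusted p = 2.12e-09). Those of Il13ra1 were -1.08 (SE 0.14, adjusted p = 6.77e-07) and -1.34 (SE 0.17, adjusted p = 1.1e-06). In Il13ra1 probe set 1454783_at the combinations were not above IL-4 alone, while in Lifr IL-4+IL-6 was 0.61 above IL-4 alone (SE 0.13, adjusted p = 0.000284) and IL-4+IL-10 was not called against it (-0.33, adjusted p = 0.07). Il6ra was below the sum by -0.61 with IL-6 (SE 0.16, adjusted p = 0.00261) and by -0.59 with IL-10 (SE 0.18, adjusted p = 0.0196). The latter was not called without IL-10 replicate 2 (-0.55, adjusted p = 0.0532) or with the mean of the gene's probe sets (-0.38, adjusted p = 0.0769). In the weaker Il6ra probe set 1422270_a_at neither was called (-0.22 and -0.16, adjusted p = 0.191 and 0.469). Il10ra was below it by -0.45 with IL-6 (SE 0.12, adjusted p = 0.00463), and its -0.27 with IL-10 (SE 0.14) was not called (adjusted p = 0.168).

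Il4ra was the chain whose 2 interactions had opposite signs. IL-4+IL-6 lay above the sum by 0.85 (SE 0.15, adjusted p = 3.79e-05) and IL-4+IL-10 below it by -0.90 (SE 0.17, adjusted p = 0.000358). Probe set 1423996_a_at gave 0.50 (adjusted p = 0.00102) and -1.13 (adjusted p = 6.95e-07), and 1447858_x_at gave 0.47 (adjusted p = 0.0182) and -0.34, the last not called (adjusted p = 0.187) except without IL-10 replicate 1 (-0.51, adjusted p = 0.043). With a term for the set, the values of 1421034_a_at were 0.91 and -0.84, both called.

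**Figure D5:**
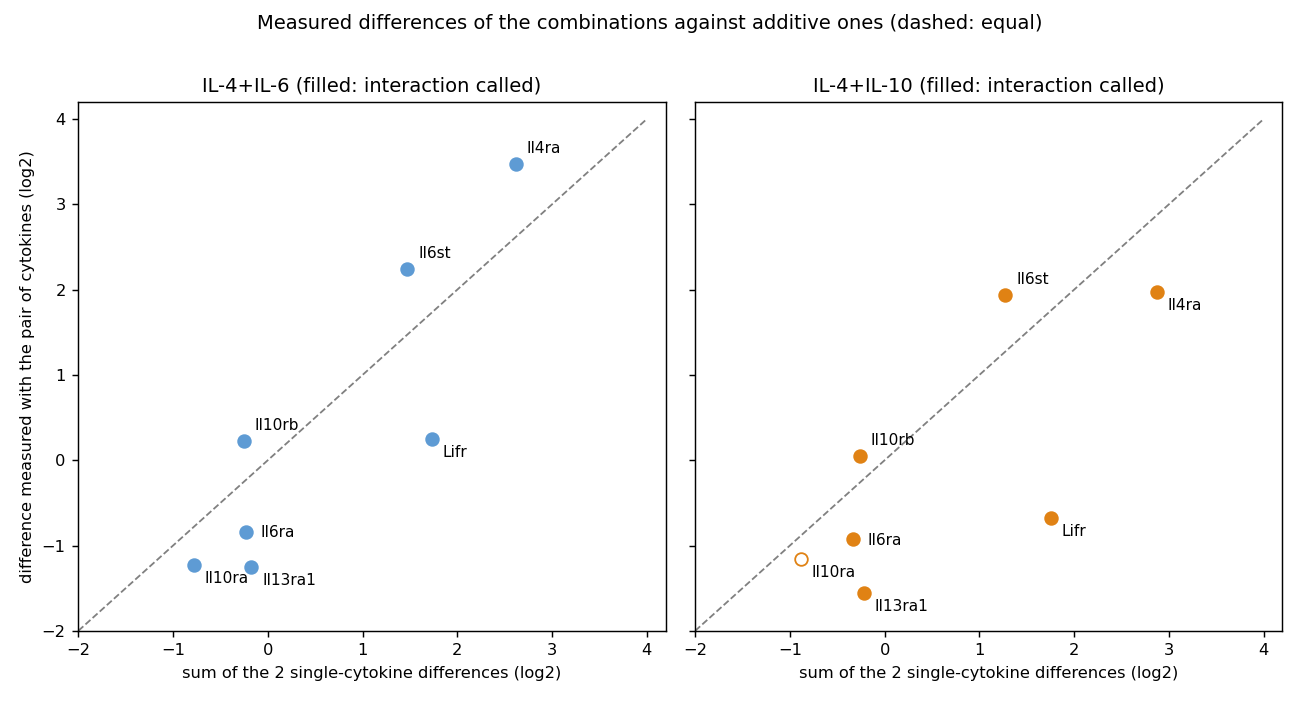
Difference of each combination from unstimulated (log2, vertical axis) against the sum of the differences with the single cytokines (log2, horizontal axis) for 7 receptor chains, IL-4+IL-6 on the left and IL-4+IL-10 on the right; the dashed line marks equality and open points are interactions that were not called. Il4ra lies above the line with IL-6 (3.47 against 2.62) and below it with IL-10 (1.98 against 2.87), and Lifr lies below it in both.

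Set against each other, IL-4+IL-10 was lower than IL-4+IL-6 in 5 of 7 chains (Il4ra, Il13ra1, Il6st, Il10rb and Lifr) and higher in 0, against 42.9% of all probe sets called, and at an unadjusted p under 0.05 the counts were the same. The largest of these differences was in Il4ra (-1.50, SE 0.13, adjusted p = 1.03e-09), followed by Lifr (-0.93, SE 0.15, adjusted p = 3.03e-05). This comparison crosses the sets, and with a term for the set Il4ra (-1.34, adjusted p = 6.66e-06), Lifr (-0.61, adjusted p = 0.0396) and Il10rb (-0.22, adjusted p = 0.00467) were called. Il6st (-0.07, adjusted p = 0.616) and Il13ra1 (-0.35, adjusted p = 0.189) were not, and the Il13ra1 value without that term sat at the threshold (-0.30, adjusted p = 0.0496). It was not called without any 1 of 6 of the 8 arrays compared (-0.21 to -0.31). IL-10 against IL-6 also crosses the sets, so its counts may hold differences between the sets. It gave 0 of 7 chains called by limma, against 14.8% of all probe sets. At an unadjusted p under 0.05 1 chain was lower, Il6st. The Il6st difference was -0.20 (SE 0.07, adjusted p = 0.06), and it was called without IL-6 replicate 5 (-0.23, adjusted p = 0.0389). With a term for the set the Il6st difference was 0.04.

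The effect of adding IL-4 to cells that received IL-6 reached all 7 chains, 3 higher and 4 lower, against 65.0% of all probe sets. Added to IL-10 it reached 6, 1 higher (Il6st) and 5 lower, against 57.8%. Il10rb was the exception in the second (0.03, SE 0.04, adjusted p = 0.567) and rose in the first (0.20, SE 0.03, adjusted p = 3.81e-06). Read the other way, adding IL-6 to IL-4 changed 6 of 7 chains (4 higher and 2 lower, against 58.5%) and adding IL-10 to IL-4 also 6 (3 higher and 3 lower, against 56.6%). Il6ra and Il10ra, the ligand-binding chains of IL-6 and IL-10, were lower in both and were not called with IL-6 or IL-10 alone, but with a term for the set the Il10ra difference for adding IL-10 was not called (-0.24, adjusted p = 0.209), which leaves 5 chains.

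For each chain the genes with the most similar profile were taken by Pearson correlation over the 29 arrays, which share groups and so mostly reflect the group means. Il6st was most like Pdcd1lg2 (r = 0.993), Stt3b (0.989) and Ccl24 (0.987). Il4ra was most like Ms4a6d (0.985), Arid5a (0.984) and Nipa2 (0.981). Il10ra went with Clk1, Psen2 and Smox (0.979 to 0.981), Il13ra1 with Tab2, Ppp1cc and Nfkbiz (0.972 to 0.975), and Il6ra with Pld4, Cyp27a1 and Kdm3b (0.958 to 0.975). Lifr went with Ctsc, Dram2 and Plcl2 (0.966 to 0.972) and Il10rb, whose range was the narrowest, with Mylip, Bach1 and Iqgap2 (0.924 to 0.940). Among the chains themselves, Il6ra and Il10ra were the most alike (0.909), and Il6st ran opposite to Il10ra (-0.94), Il13ra1 (-0.86) and Il6ra (-0.81).

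Other cytokine receptor chains were read from a list of 50 genes, of which 40 had a probe set and 24 were tested. IL-4 raised 10 and lowered 11, IL-6 raised 9 and lowered 6, and IL-10 raised 7 and lowered 7, beside 57.0%, 37.2% and 37.4% of all probe sets called. IL-4+IL-6 raised 9 and lowered 11 and IL-4+IL-10 raised 9 and lowered 10, beside 72.0% and 70.9%. The list had medians from -0.08 to 0.05 over these 5 comparisons and medians of all probe sets from -0.03 to 0.01. Il31ra, a gp130-related chain that serves IL-31, rose with IL-4 (2.66, SE 0.10, adjusted p = 7.63e-19) and gave -0.05 with IL-6 (adjusted p = 0.711). Il1r1, the signalling receptor of IL-1, went from 5.22 to 6.19 with IL-4 and 8.67 with IL-4+IL-6 (3.45, SE 0.09, adjusted p = 2.84e-22). Il21r, which pairs with the common gamma chain, rose with IL-6 (1.40, SE 0.10, adjusted p = 7.62e-12) and IL-10 (1.06, SE 0.12, adjusted p = 5.77e-08). Tgfbr1 and Tnfrsf1b, receptors for TGF-β and TNF, fell most with IL-4+IL-6 (-2.04, SE 0.05, and -1.87, SE 0.08).

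Downstream of the chains, 29 of 33 measured genes of JAK-STAT signalling and its feedback were tested. IL-4 raised 8 and lowered 9, IL-6 raised 9 and lowered 4, and IL-10 raised 11 and lowered 1, beside 57.0%, 37.2% and 37.4% of all probe sets called, with list medians of -0.01, 0.08 and 0.11 beside medians of all probe sets from -0.03 to -0.01. Socs3, the inhibitor that binds gp130, rose with IL-6 (4.95, SE 0.11, adjusted p = 5.56e-23) and IL-10 (5.64, SE 0.13, adjusted p = 1.62e-22), and Stat3 rose by 1.01 and 1.09. Socs2, Cish and Socs1, inhibitors of cytokine signalling, rose with IL-4 by 4.66, 2.64 and 1.96. Jak2 was the gene of the list furthest above additivity with IL-6 (1.23, adjusted p = 6.6e-16), and Socs3 the furthest below it with IL-10 (-1.59, adjusted p = 5e-07). The combinations raised 15 genes each and lowered 7 (IL-4+IL-6) and 8 (IL-4+IL-10), beside 72.0% and 70.9% of all probe sets called.

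Of 21 ligands of these receptors, 15 had a probe set and 3 were tested. Il10 had an unstimulated mean of 6.67, and with IL-4 it was lower by -1.63 (SE 0.10, adjusted p = 1.54e-13). It rose by 1.20 with IL-6 (SE 0.10, adjusted p = 2.27e-10) and by 1.26 with IL-10 (SE 0.12, adjusted p = 2.85e-09), where the added protein itself is not what an RNA array measures. Ebi3, the subunit that IL-27 and IL-35 share, fell in all 5 comparisons with unstimulated, most with IL-4+IL-6 (-2.26, SE 0.05, adjusted p = 4.2e-24). Il15 fell with IL-4 (-0.86, SE 0.10, adjusted p = 5.57e-08) and in both combinations. Of 4 enzymes of receptor shedding 2 were tested. Adam17, a protease that cleaves IL-6Rα from the cell surface, fell in all 5 comparisons, by -0.27 with IL-6 (SE 0.04, adjusted p = 7.41e-06) to -0.78 with IL-4+IL-6 (SE 0.04, adjusted p = 7.6e-16). Adam10 moved by -0.15 to 0.13.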

How the data were processed

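RNA of bone marrow-derived macrophages was measured on 29 Affymetrix 3′ expression arrays. RMA, named in the submitters' processing notes beside GCOS 1.4, gave the deposited values, probe set summaries on a log2 scale. The base is inferred from the highest values, which exceed the natural logarithm of a 16-bit scanner's maximum (11.09). The RMA version, and which arrays it normalized jointly, are not given in the sources used here. Values were used as deposited. Groups come from the labels.

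Probe sets were named through the array's gene annotation: 20380 name 1 gene, 691 several and 1555 none, and 64 are controls. Those that name 1 gene and exceed the median of all values (6.99) on at least 3 arrays were tested, 11132 in all. One limma 3.58.1 model (R 4.3.3) held all 6 groups (moderated tests, two-sided, with p-values adjusted by Benjamini-Hochberg within each comparison and called at an adjusted p under 0.05), for 15 pairs of groups and 2 interactions. A fold is given only where both group means exceed 6.99. The probe set with the highest mean represents a gene. Members and lists were chosen with earlier results of these data known. Up to 4 called genes of the largest change are named per list and comparison, and the 3 most similar genes per chain. The fit was checked on simulated data with independent noise on each array, so the check does not cover pairing or differences between the sets. The number of arrays limits the precision.

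Same-numbered arrays deviated together within the first set (30 of 30 pairs, r from 0.470 to 0.723) and between IL-10 and IL-4+IL-10 (3 of 3, r from 0.603 to 0.803). In other pairs, which joined equal numbers across the sets, r ran from -0.69 to 0.54. The second-set unstimulated arrays share no replicate number with the IL-10 or IL-4+IL-10 arrays. Whether they pair with those arrays was not tested, and differences from unstimulated within the second set were fitted without such a pairing. The pairing used thus comes from the titles' numbers and this correlation, and the blocked value is given where it changed a call.

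Alternatives were quantile normalization, median centring, other filters, 1 probe set or the mean of the probe sets per gene, other variance models and array weights. Further ones were only the groups compared, blocks for replicate number, terms for the set, stricter thresholds and leaving out each array. The block for IL-10 with IL-4+IL-10, and leaving out unstimulated replicates 6 to 8, were chosen after seeing the data.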

Additional observations from a re-analysis of the deposited data

Results flagged for a closer look

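In 14 tests of additivity over 7 chains, 13 were called, beside 38.1% (IL-6) and 23.9% (IL-10) of all probe sets. Il13ra1 was tested only because its values with IL-6 or IL-10 alone passed the filter, so its calls are a description rather than support. The Il6ra call with IL-10 was lost without IL-10 replicate 2 (-0.55, adjusted p = 0.0532 by limma). It was also lost with the mean of the gene's probe sets (-0.38, adjusted p = 0.0769). With IL-6 the excess over the sum was 0.85 for Il4ra, 0.77 for Il6st and 0.48 for Il10rb, and the shortfall was -1.08 for Il13ra1, -0.61 for Il6ra, -0.45 for Il10ra and -1.48 for Lifr. With IL-10 the excess was 0.66 for Il6st and 0.31 for Il10rb, and the shortfall was -0.90 for Il4ra, -1.34 for Il13ra1, -0.59 for Il6ra and -2.44 for Lifr. All values are on the log2 scale and come from the probe set that represents the gene.

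Of 88 groups of 5 or 8 arrays over the 22 probe sets, 5 held an array far from the rest by Dixon's criterion, and chance gives about 1 in 20. For Il4ra (1421034_a_at), IL-6 replicate 5 read 11.04 with the next array at 10.77, and IL-4+IL-6 replicate 1 read 11.43 with the next at 11.34. For Il10rb, IL-6 replicate 1 read 12.26 with the next at 12.23. In the dim probe sets, Lifr (1425107_a_at) read 5.21 on IL-4 replicate 1 with the next at 4.98, and Il13ra1 (1427164_at) read 4.63 on IL-4+IL-6 replicate 5 with the next at 5.19.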

How the results depend on the processing

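With 3 arrays in each IL-10 group and 10 of 22 receptor probe sets too dim to test, small or low changes could be missed. The number of chains called was recomputed under every alternative. Averaging all probe sets of a gene left 2 for IL-4 (6 in the report) and 3 for IL-4+IL-10 (6) against unstimulated, but of only 5 genes tested, since Il13ra1 and Il10ra then failed the filter. For IL-10 against IL-6, where 0 were called, 1 was called after quantile normalization, with the filter at the 75th percentile, with the mean of the probe sets, with array weights or without unstimulated replicates 6 to 8. A replicate block over all arrays, which also joins numbers across the sets, gave 3 there and 6 for IL-10 against unstimulated (3 without it). It also turned the Il6st difference for IL-10 to -0.12 (adjusted p = 0.0304 by limma, against 0.01). A term for the set left 3 of 5 for IL-4+IL-10 against IL-4+IL-6. Asking for an absolute log2 difference of 1 left 2 for IL-4 and 2 for IL-6 against unstimulated, 1 each for IL-4+IL-6 and IL-4+IL-10 against IL-4, 4 for IL-4+IL-6 against IL-6, 1 for IL-4+IL-10 against IL-4+IL-6, and 2 for each interaction. The cause of these shifts was not tested, apart from the stricter thresholds, which can only remove calls.

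Leaving out 1 array at a time gave 4 to 7 chains for IL-4, 4 to 4 for IL-6, 3 to 3 for IL-10, 6 to 7 for IL-4+IL-6 and 6 to 6 for IL-4+IL-10 against unstimulated. It gave 6 to 7 for each combination against IL-4, 7 to 7 for IL-4+IL-6 against IL-6 and 6 to 6 for IL-4+IL-10 against IL-10. IL-10 against IL-6 had 0 to 1, IL-4+IL-10 against IL-4+IL-6 had 4 to 5, and the interactions had 7 to 7 (IL-6) and 5 to 6 (IL-10). Blocking by replicate number within the paired groups changed the 4 calls printed in the report (Il6ra and Lifr 1425107_a_at with IL-4, Il13ra1 for IL-4+IL-6 against IL-4, and Il6ra 1422270_a_at for IL-4+IL-10 against IL-10) and no other call among the 12 receptor probe sets.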
